A study of Mus musculus with 11 samples.

Results

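The 5 PN1a glands in these data carry labels of 2 forms. Of the 11 samples in all, 2 PN1a samples are titled by a number alone and 3 by a letter after the name of the line (PN1aA, PN1aB and PN1aC), and all 5 share the same label ending. They are called here number-titled and letter-titled glands. The 2 sets were chosen by measured values, since the split was noticed in the intensities of stress and cytokine genes such as Fos, Atf3, Il6, Ccl2 and Cxcl1, so the values below describe the difference and do not test it. Nothing in the labels used here says what the title form stands for, and it cannot be told apart from any feature that the number-titled glands share.

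PN1a is a transplantable line of p53-null mouse mammary epithelium, grown in the cleared fat pads of wildtype female Balb/c hosts. PN1b, the line it was compared with, arose from the contralateral outgrowth. The 6 PN1b samples, of which 2 carry the label ending of the PN1a glands, serve here as a reference that the split did not use. Each sample is the whole gland at 8 weeks post-transplantation, so the epithelium lacks p53 in every group while fat, vessels, fibroblasts and leukocytes come from the host. Each line was kept by serial transplantation, and nothing in the labels says how many hosts or outgrowths the 5 PN1a glands come from. The level of Trp53 itself was not analysed here. RNA was hybridised to Affymetrix MG_U74Av2 arrays, which hold several short probes for each transcript, and the values are log2 of the deposited intensities. Over all samples the median log2 intensity was 3.17, and values under it are called dim here.

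Immediate early genes are transcribed within minutes of a stimulus from factors already present in the cell. They encode transcription factors such as Fos and Atf3, feedback phosphatases and RNA-binding proteins that shorten the response. NF-kappa B, AP-1 and STAT factors then drive cytokine and chemokine genes, while heat shock factors drive chaperones. In the mammary gland these genes respond to growth factors, wounding, infection and weaning.

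Genes in which the 2 lines differ are given first. Gas6, Lamp1 and Atp2a3, chosen after their values were seen, kept the PN1a level in both forms of title, whereas others such as Krt19, given below, did not. Gas6, a ligand of TAM receptors, had log2 intensities of 8.53 and 9.74 in the number-titled glands, 9.75, 9.31 and 8.40 in the letter-titled glands, and 5.36 to 6.43 in PN1b. Lamp1, a lysosomal membrane protein, was at 10.37 and 10.45 in the number-titled glands, 9.95 to 10.48 in the letter-titled glands and at most 8.53 in PN1b. In the other direction, Atp2a3, a calcium pump, was at 3.49 and 3.17 in the number-titled glands and 3.45 to 4.02 in the letter-titled glands, below the lowest PN1b value of 7.38. In the brightest probe set of each of these 3 genes all 5 glands lay outside the PN1b range. They were picked with these values known, so this describes the glands and does not test their identity. Tfdp1, picked in the same way and given below, also lay above PN1b in all 5 glands but differed between the title forms by 1.29. Dimmer Atp2a3 probe sets overlapped. PN1a was at 0.75 to 1.75 and PN1b at 0.92 to 4.10 in one, and at 3.84 to 4.37 and 4.34 to 5.81 in another. Luminal keratins Krt8 and Krt18 were well above the median in every sample, whereas the basal keratins Krt5, at 1.51 to 3.61, and Krt14, at 0.01 to 2.15, were dim or close to dim in all 11. Esr1 was also dim, at 1.77 to 2.97. The study describes these lesions as hormone receptor positive, which is a status of the lesions and not array RNA of whole glands. A probe set that is dim in every sample cannot be set against that status.

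The number-titled glands stood apart from the other samples as whole profiles. Across probe sets, Pearson's r was 0.916 between the 2 number-titled glands and 0.949 to 0.962 among the letter-titled glands. Between number-titled and letter-titled glands of the same line r was 0.857 to 0.905. Letter-titled glands were closer to PN1b, a different line, with r of 0.902 to 0.949. Each of them was closest to PN1b 5 among the PN1b samples, with r of 0.943 to 0.949, and that sample shares their form of title and label ending. These correlations are across probe sets, which are not independent replicates.

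The arrays' control probe sets also separated the number-titled glands. The 18S ribosomal RNA control, given as the median of 3 probe sets on the linear scale, was 167 and 260 in the number-titled glands, 16, 16.2 and 7.84 in the letter-titled glands, and 5.39 to 15.2 in PN1b. The 5′ to 3′ ratio of the Gapdh control was 1.21 and 1.13 in the number-titled glands, 0.570, 0.578 and 0.240 in PN1aA, PN1aB and PN1aC, and 0.192 to 0.801 in PN1b. For actin the ratio was 0.732 and 0.669 in the number-titled glands and 0.518, 0.595 and 0.261 in the letter-titled glands, but the PN1b range of 0.207 to 0.758 enclosed the number-titled values. PN1aC and PN1b 6 had the lowest ratios of their groups. These measures moved with the title form, and their part in the differences below was not tested.

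**Figure D1:**
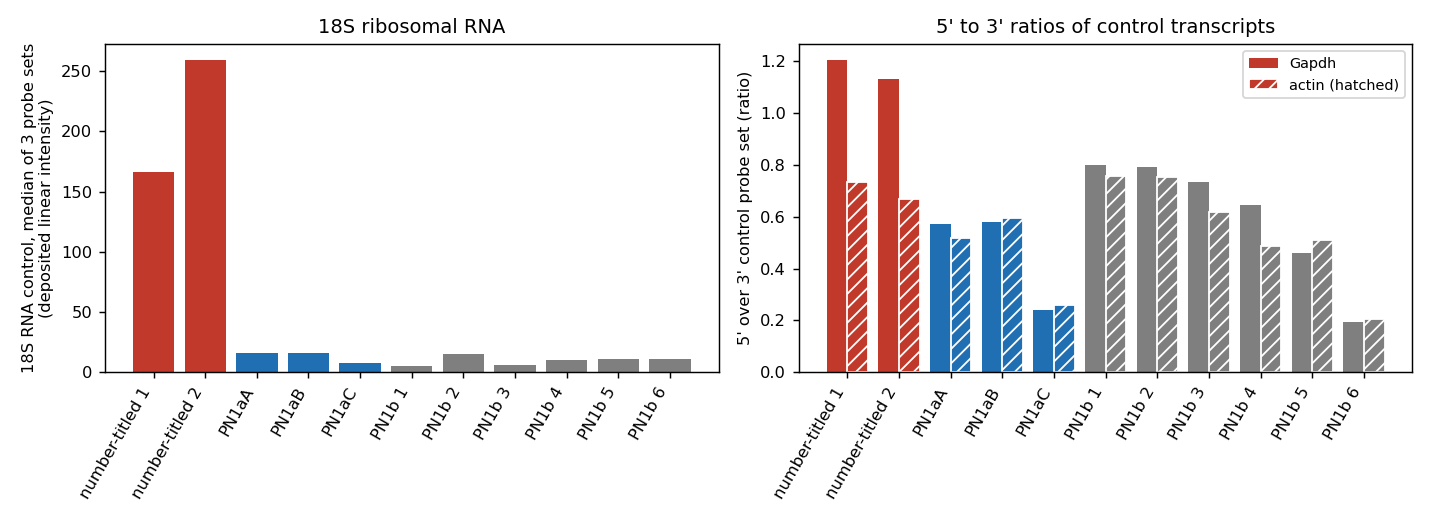
Control probe sets in each sample. Left, 18S RNA control as linear intensity, 1 bar per sample, at 167 and 260 in the number-titled glands and at most 16.2 elsewhere; right, the ratio of 5′ to 3′ control probe sets for Gapdh (plain) and actin (hatched), lowest in PN1aC and PN1b 6.

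Of 12422 probe sets, 920 (7.41%) were lower in the number-titled glands, with values that did not overlap those of the letter-titled glands and means at least 2-fold apart, and 529 (4.26%) were higher. The differences on the lower side were larger. A difference of at least 4-fold was reached by 243 of the 920 and 28 of the 529, and one of at least 8-fold by 89 and 0. Just inside the 2-fold limit were Angpt2, at -1.0 on the log2 scale, and Tgds, at 1.0, and just outside it Bcl6, at -0.998, and Rhog, at 0.998. limma placed 273 probe sets (2.20%) lower and 29 (0.233%) higher at an adjusted p under 0.05 with a fold change of at least 1.5, counts given as a description since the same contrast defined the split. Without PN1aC limma placed 97 lower and 0 higher, although 820 were higher at an unadjusted p under 0.05, without PN1aB 99 and 3, without PN1aA 126 and 4, without number-titled 2 150 lower and without number-titled 1 17 higher. Of the 8251 genes, each taken by its brightest probe set, 679 (8.23%) were lower and 352 (4.27%) higher by the rule of no overlap and 2-fold, and the median difference over all genes was 0.03. Genes that met this rule are called separated here. Shares given for the lists below are to be read beside these 8.23% and 4.27% of all genes.

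PN1b samples took the side of the letter-titled glands for most of these probe sets. Among the 920 lower probe sets, the number-titled glands were below all other 9 samples in 638 (69.3%), and the letter-titled glands were above all other 8 in 103 (11.2%). Among the 529 higher ones, the number-titled glands were above all others in 327 (61.8%), and the letter-titled glands below all others in 27 (5.10%). Over all probe sets, the number-titled glands were below the other samples in 10.1% and above them in 8.84%, and the letter-titled glands in 1.17% and 1.71%. The median distance to the PN1b mean over the 920 was -1.36 on the log2 scale for number-titled and 0.20 for letter-titled glands. Against the 2 PN1b samples of the same label ending, those distances were -1.52 and 0.04. The line differs between PN1a and PN1b, so that these distances also hold differences between lines.

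**Figure D2:**
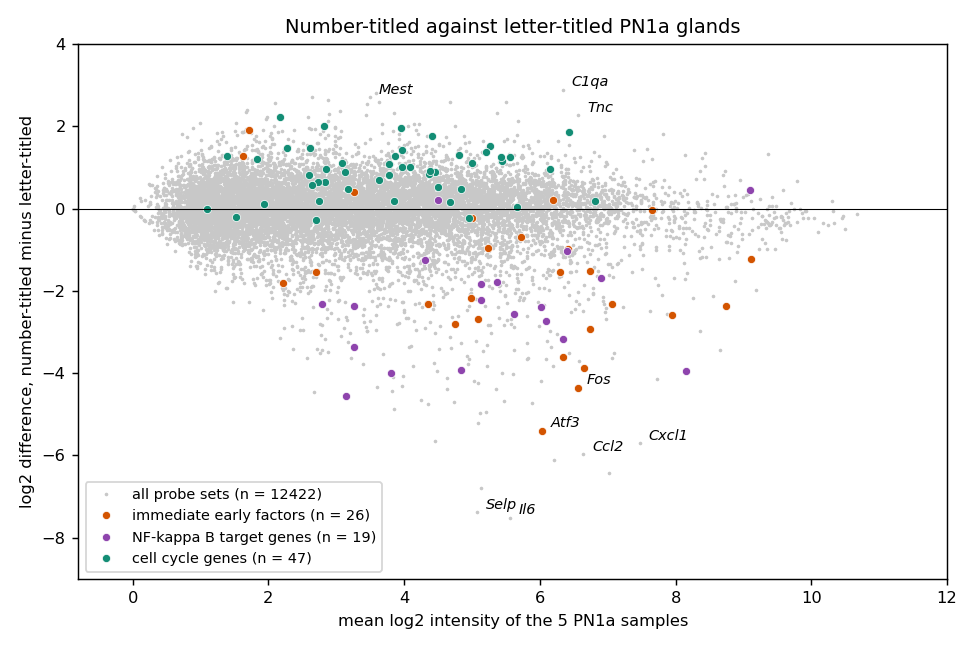
Log2 difference between the means of number-titled and letter-titled glands (y axis) against the mean log2 intensity of the 5 PN1a samples (x axis) for each probe set. Grey points are all 12422 probe sets and coloured points the genes of 3 lists by their brightest probe set; Il6 and Selp lie lowest, and most cell cycle genes lie above 0.

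Early response factors were among the genes that separated the glands most. Fos, a subunit of AP-1, was at 4.02 and 3.87 in the number-titled glands, at 8.38, 8.28 and 8.26 in the letter-titled glands, and at 7.94 to 9.29 in PN1b. The difference was -4.36 ± 0.24 (SE, n = 2 and 3). A dimmer second Fos probe set differed by -1.52. Atf3, a stress-induced repressor, was at 2.48 and 3.08 against 8.16, 8.30 and 8.11, a difference of -5.41 ± 0.28, with PN1b at 7.78 to 9.25. In both genes the number-titled glands lay below every other sample, by more than 3 log2 units.

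Of 26 measured immediate early genes, 17 (65.4%, against 8.23% of all genes) were lower without overlap. On the higher side was 1 (3.85%, against 4.27%), and the median difference was -1.68. Fosb, a partner in AP-1, differed by -3.6 ± 0.27, and Zfp36, which destabilises cytokine mRNAs, by -3.87 ± 0.24. Egr1, a zinc finger factor induced by growth factors, was at 6.46 and 6.34 against 9.09, 9.04 and 8.82. Jun differed by -1.53 ± 0.28 and Myc by -2.18 ± 0.33. Junb did not follow, with 7.55 and 7.69 against 7.93, 7.71 and 7.36, which overlap. The member on the higher side was Id1, an inhibitor of helix-loop-helix factors, at 2.63 and 3.11 against 0.88, 1.43 and 0.54, all dim. In 21 of the 26 genes the number-titled glands lay outside the range of the other 9 samples, on either side.

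**Figure D3:**
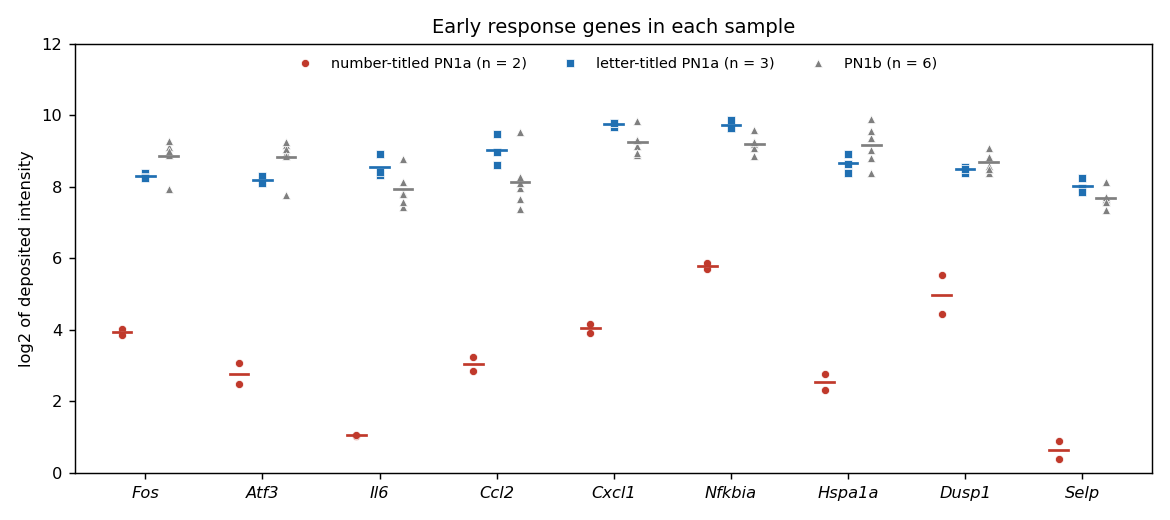
Log2 intensity of 9 genes in each sample, by group, with horizontal bars at the group means. In each gene shown both number-titled glands lie below the 3 letter-titled and the 6 PN1b samples; levels compare between samples within a gene and not between genes.

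A list of MAP kinase feedback and signalling genes was lower in 7 of 11, with a median of -1.51, which was -0.88 with 16 added to each intensity before taking log2 and -0.97 with the mean of all probe sets of a gene. Beside feedback inhibitors the list holds Map3k8, an activating kinase that was among the 7, and the EGF receptor ligands Hbegf and Ereg, which were not separated. Dusp1, a phosphatase that switches off MAP kinases, was at 5.53 and 4.45 in the number-titled glands and 8.40, 8.57 and 8.5 in the letter-titled glands. Errfi1, an inhibitor of EGF receptor, was at 6.13 and 6.52 against 8.5, 9.12 and 9.08, and PN1b lay higher still at 9.23 to 10.26. Both groups of PN1a glands were thus below PN1b in this Errfi1 probe set, although by unequal amounts. In a dimmer one the letter-titled glands, at 7.17, 8.11 and 6.99, overlapped PN1b at 7.52 to 9.45. There the number-titled glands were lowest, at 5.15 and 5.22.

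Cytokine genes showed the largest single difference. Il6, which acts through gp130 and STAT3, was at 1.03 and 1.07 in the number-titled glands, 8.34, 8.42 and 8.93 in the letter-titled glands and 7.45 to 8.77 in PN1b. Its difference of -7.51 ± 0.28 starts from dim values, and with 16 added it was -4.45. Among 17 measured cytokine genes, 11 (64.7%) were lower and 1 (5.88%) higher, with a median of -2.07, or -0.77 with 16 added. Tnf was at 2.83 and 3.26 against 7.77, 8.00 and 7.58, and Il1b at 4.31 and 3.39 against 7.0, 7.30 and 7.05. In these, the letter-titled glands were above every PN1b sample, the highest of which was at 6.67 for Tnf and 6.45 for Il1b. Il1rn, the antagonist of the interleukin 1 receptor, and Il10, which restrains macrophages, shared that pattern. Ifng, Il4, Il12b, Il13 and Il18 did not separate by this rule. Tgfb1 was on the higher side, at 5.38 and 4.07 against 3.6, 3.75 and 2.95.

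Among 23 chemokine genes 13 (56.5%) were lower and 0 higher, with a median of -2.14, or -1.20 with 16 added. Ccl2, which attracts monocytes through CCR2, was at 3.25 and 2.85 in the number-titled glands and 8.62, 8.97 and 9.49 in the letter-titled glands, a difference of -5.98 ± 0.33. Cxcl1, which attracts neutrophils through CXCR2, was at 4.18 and 3.91 against 9.68, 9.79 and 9.79, and its second probe set differed by -6.42. PN1b lay near the letter-titled glands in both, at 7.37 to 9.54 for Ccl2 and 8.90 to 9.85 for Cxcl1. Cxcl2 differed by -6.80 ± 0.26. The T cell attractants Ccl4 and Ccl5 differed by -4.98 ± 0.27 and -4.68 ± 0.25, and in both the letter-titled glands were also above all PN1b samples. By their brightest probe sets Cxcl12, Cxcl13 and Cxcl14 were not separated. Cxcl12 was at 5.85 in the mean of the letter-titled glands, with a difference of -0.20 ± 0.32, but its other probe sets differed by 0.93 and by 1.83, the second of which was separated on the higher side.

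Target genes of NF-kappa B had the highest share of separated members among the lists measured, 16 of 19 (84.2%), with a median of -2.38, or -1.44 with 16 added. Nfkbia, the inhibitor that NF-kappa B itself induces, was bright throughout, at 5.71 and 5.86 in the number-titled glands, 9.66, 9.87 and 9.64 in the letter-titled glands and 8.86 to 9.60 in PN1b. Its difference of -3.94 ± 0.24 therefore does not start from dim values, and with 16 added it was -3.6. Icam1, an adhesion molecule for leukocytes, was at 4.66 and 4.23 against 7.63, 7.51 and 7.70. Ptgs2, the inducible cyclooxygenase, was at 2.66 and 0.18 against 5.04, 5.43 and 5.75. Lcn2, a siderophore-binding protein that NF-kappa B also drives, went apart from the rest, at 8.78 and 9.94 against 8.84, 9.16 and 8.75. Of 14 genes of JAK and STAT3 signalling, 6 were lower, with a median of -0.91, or -0.58 with 16 added, among them Cebpd at -2.70 ± 0.24 and Osmr at -2.21 ± 0.32.

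Promoters of these genes were searched for the recognition sequences of the factors named. RefSeq promoter windows on GRCm38.p6, from 250 bases before to 50 after each start, were matched to 6572 of the 8251 genes, 517 of the 679 lower and 282 of the 352 higher ones. The AP-1 sequence TGACTCA, on either strand, was in 10.3% of the lower genes, 5.32% of the higher genes and 5.34% of all genes matched. The cyclic AMP response element TGACGTCA was in 4.45%, 2.84% and 3.16%, and the STAT sequence TTCCNGGAA in 1.55%, 0.355% and 1.31%. The NF-kappa B consensus was in 0.387%, 0.355% and 0.243%, which are 2, 1 and 16 genes. For the hypoxia response element TACGTG the shares were 2.71%, 6.03% and 4.11%. The exact consensus of the serum response element was in 0 lower and 0 higher genes. It was in 1 of all 6572 genes matched, too few for these counts to tell the groups apart. These shares describe letters in a short window and are not sites of binding. Among the marker genes Fos, Atf3, Il6 and Cxcl1 had a window, and Il6 alone of these held a match. Windows around matches are shown for lower genes that carry the response in the values above, 5′ to 3′ on the strand of the gene, with the matched sequence in capitals.
Il6, AP-1, chr5:30012864-30012896, plus strand: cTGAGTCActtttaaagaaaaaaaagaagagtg
Il1a, AP-1, chr2:129309973-129310009, minus strand: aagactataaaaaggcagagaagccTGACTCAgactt
Sele, AP-1, chr1:164048136-164048192, plus strand: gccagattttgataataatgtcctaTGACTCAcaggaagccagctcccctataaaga
Tnfaip3, AP-1, chr10:19015515-19015571, minus strand: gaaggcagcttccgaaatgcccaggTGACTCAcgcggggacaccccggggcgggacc
Dusp1, cyclic AMP response element, chr17:26508583-26508640, minus strand: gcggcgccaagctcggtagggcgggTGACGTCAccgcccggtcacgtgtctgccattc
Ppp1r15a, cyclic AMP response element, chr7:45526269-45526305, minus strand: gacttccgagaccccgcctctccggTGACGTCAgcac
Nfkb2, NF-kappa B, chr19:46305680-46305739, plus strand: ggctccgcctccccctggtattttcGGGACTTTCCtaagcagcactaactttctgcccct

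Of the genes shown by sequence, Il1a, an interleukin 1 released by damaged cells, was at 0.95 and 1.36 in the number-titled glands and 5.00, 5.87 and 5.91 in the letter-titled glands. Sele, an endothelial selectin, differed by -4.57 ± 0.28 and Tnfaip3, a ubiquitin-editing brake on NF-kappa B, by -2.38 ± 0.56. Nfkb2, a subunit of the factor, was at 4.72 and 3.88 against 6.00, 6.40 and 5.83. In each of these 4 genes the number-titled glands were below every other sample.

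Chaperone genes induced by heat were lower in part. Hspa1a, an inducible HSP70, was at 2.32 and 2.78 in the number-titled glands, 8.65, 8.93 and 8.39 in the letter-titled glands and 8.38 to 9.90 in PN1b. Hspa1b, its near copy, was at 6.25 and 6.95 against 10.01, 10.07 and 10.0, and probes for such close copies may read both. Hsph1 differed by -2.44 ± 0.36 and Dnajb1 by -2.17 ± 0.44. Of 19 genes 9 (47.4%) were lower, with a median of -0.94, which was -0.52 with 16 added, -0.53 with the mean of all probe sets and -0.54 without number-titled 2. Hspa8, a chaperone that cells also make without stress, was at 8.10 and 8.23 against 8.66, 8.75 and 8.37, a difference under 2-fold.

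Growth arrest and integrated stress genes were lower for a part of their list, 6 of 17, with a median of -0.33 that ranged from -0.52 to -0.15 as letter-titled glands were left out and was -0.18 with 16 added. Gadd45b was at 3.55 and 4.24 against 7.63, 7.64 and 7.41, and Ppp1r15a, a phosphatase subunit that restores translation after stress, differed by -3.02 ± 0.33. Of genes of the endoplasmic reticulum response, Herpud1, Pdia3 and Calr were not separated, whereas Ddit3, a factor of that response, differed by -1.30 ± 0.41 and Dnajb9, a chaperone of that compartment, by -2.77 ± 0.46, both separated. Of 18 genes of oxidative and metal stress 7 were lower, with a median of -0.64, or -0.33 with 16 added. Mt2, a metallothionein, was at 7.98 and 7.66 against 9.35, 9.44 and 9.97, and Hmox1, which degrades haem, differed by -2.39 ± 0.51.

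Genes that glucocorticoids induce were lower in 10 of 15, with a median of -1.80, which was -0.86 with 16 added and -1.22 with the mean of all probe sets. Sgk1, a kinase of ion transport, was at 5.91 and 4.88 against 7.48, 7.43 and 7.85. Cdkn1a, a cyclin-dependent kinase inhibitor and p53 target, was at 4.02 and 3.89 against 6.48, 6.42 and 6.14. Fkbp5 and Tsc22d3, which glucocorticoid receptor also induces, were not separated. Clock genes were lower in 5 of 15, with a median of -0.34, which was -0.56 or -0.59 without number-titled 1 or 2 and -0.17 with 16 added. Per1, which light and stress signals also induce, was at 0.86 and 0.93 against 3.6, 3.92 and 1.85, whereas Per2, Per3 and Dbp were not separated.

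Genes of the hypoxia list went both ways, with 4 lower and 4 higher of 19 (21.1% each, against 8.23% and 4.27% of all genes). The median was 0.28, which was 0.047 without number-titled 1 and -0.017 without number-titled 2. Vegfa, the main vessel growth factor, was at 5.01 and 5.26 against 4.41, 3.91 and 2.99, and Bnip3, a mitophagy receptor, differed by 1.49 ± 0.38. Hk2, a hexokinase, was on the lower side at -1.89 ± 0.57 and Slc2a1, a glucose transporter, too. Without PN1aC, which is the lowest PN1a gland in Vegfa, the list had 4 lower and 1 higher, and a median of 0.08, and with 16 added and PN1aC kept the median was 0.18.

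**Figure D4:**
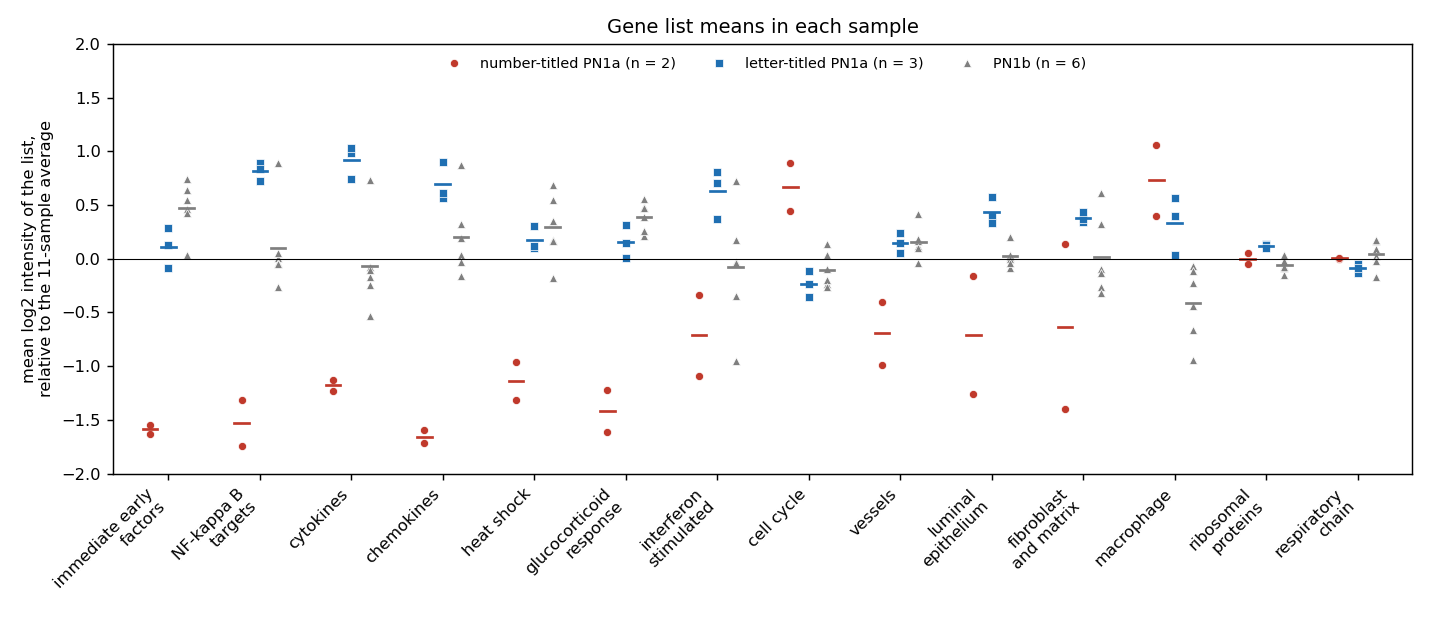
Mean log2 intensity of 14 gene lists in each sample, each gene relative to its average over the 11 samples (y axis), with bars at group means. Number-titled glands lie lowest for early response, cytokine and heat shock lists and highest for cell cycle genes, and the groups lie close together for ribosomal proteins and the respiratory chain.

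Cell cycle genes went the other way. Of 47 measured, 21 (44.7%, against 4.27% of all genes) were higher and 0 lower in the number-titled glands, with a median of 0.96. At its threshold limma placed 2 of the 47 higher and 0 lower, against 18 higher and 224 lower of all 8251 genes. The largest difference was that of Aurkb, a mitotic kinase, at 2.23 ± 0.41. Mki67, a marker of cycling cells, was at 5.80 and 6.47 in the number-titled glands, 5.07, 4.92 and 4.92 in the letter-titled glands and 4.62 to 5.33 in PN1b. A dimmer second Mki67 probe set went the opposite way, by -1.03. Birc5, which acts in chromosome segregation and survival, was at 5.15 and 5.78 against 4.02, 3.56 and 3.53. Aurka, another mitotic kinase, was at 3.52 and 4.51 against 2.52, 2.33 and 1.21, and Mcm2, a subunit of the replicative helicase, at 4.81 and 5.44 against 3.61, 3.54 and 2.34. Ccnd1, the cyclin that couples growth signals to the cycle, was at 6.61 and 8.5 against 6.01, 5.92 and 5.14.

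Number-titled 2 had the higher list mean, at 0.89 on the scale of the plot of list means, against 0.44 in number-titled 1, -0.12 to -0.36 in the letter-titled glands and -0.27 to 0.14 in PN1b. Some cycling genes did not separate, and Pcna was at 6.75 and 7.08 against 6.64, 6.69 and 6.88. Many values of the list are dim, and with 16 added to the intensities the median was 0.39. Inhibitors of the cycle did not form the mirror image, since 3 of 16 were lower and 0 higher, with a median of 0.00. Without PN1aC 22 cell cycle genes were higher.

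Vessel genes were lower in 16 of 34 (47.1%) and higher in 1 (2.94%). The median was -0.91, which was -0.42 without number-titled 2, -0.29 with 16 added and -0.64 with the mean of all probe sets. By limma 3 of the 34 were lower and 0 higher, against 224 and 18 of all 8251 genes. Selp, the P-selectin that activated endothelium and platelets display, was at 0.88 and 0.40 against 7.97, 7.86 and 8.25, with PN1b at 7.35 to 8.15. Vwf, a clotting factor of endothelium, differed by -4.33 ± 0.29 and Thbd, an anticoagulant receptor, by -3.51 ± 0.33. Both differences start from dim number-titled values, and with 16 added they were -1.64 and -0.96. A dimmer second Vwf probe set differed by -0.53 and was not separated, while another of Thbd differed by -2.81 and was. Ackr1, a chemokine receptor of venules, differed by -4.75 ± 0.40. Selp and Ackr1 are not members of the list and are given for the size of their differences. Among markers of endothelium, Cldn5, a tight junction protein, differed by -2.84 ± 0.46 and Tek, the angiopoietin receptor, by -1.80 ± 0.49, both separated. Cdh5, the cadherin of endothelial junctions, was at 5.60 and 3.61 against 6.25, 6.33 and 6.62, and Pecam1 at 3.26 and 2.46 against 4.10, 4.56 and 4.39. Kdr, the main VEGF receptor, differed by -0.46 ± 0.26. The mean of the vessel list was -0.40 in number-titled 1 and -0.99 in number-titled 2, against -0.04 to 0.42 in the other 9 samples. In whole glands, fewer cells of a type and less RNA per cell cannot be told apart.

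The number-titled glands were not alike in their tissue genes. Luminal epithelial genes had a list mean of -1.26 in number-titled 1 and -0.16 in number-titled 2, against 0.33 to 0.57 in the letter-titled glands and -0.09 to 0.20 in PN1b. Krt18 was at 6.19 and 7.72 against 8.82, 9.21 and 9.35, and Epcam, an epithelial adhesion protein, at 4.54 and 6.21 against 6.21, 6.59 and 6.32. Fibroblast and matrix genes showed the reverse order, with list means of 0.13 in number-titled 1 and -1.40 in number-titled 2. Dcn, a collagen-binding proteoglycan, was at 7.52 and 5.61 against 9.41, 9.55 and 9.68, and Lum, its relative, at 3.44 and 2.00 against 6.89, 7.10 and 7.35. Fn1, fibronectin, was at 9.84 in number-titled 1 and 6.67 in number-titled 2, with 6.58 to 7.13 in the letter-titled glands. The median of the fibroblast list over 24 genes was -0.83 with 10 lower, and it was -1.78 without number-titled 1 and 0.05 without number-titled 2. Early response genes held no such contrast, since their list means were -1.63 and -1.55.

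Luminal and milk genes also included members that were highest in the letter-titled glands. Krt19, a keratin of luminal cells, was at 5.23 and 4.55 in the number-titled glands, 8.44, 8.35 and 8.78 in the letter-titled glands and 3.32 to 5.76 in PN1b, so that the number-titled glands were at the PN1b level. Foxa1, a pioneer factor of luminal cells, was at 1.5 and 0.94 against 4.23, 4.14 and 4.56, with PN1b at 1.60 to 3.49. Gata3, a luminal transcription factor, was at 5.32 and 4.07 against 6.28, 6.24 and 6.37, with PN1b at 3.83 to 4.57. Of 22 luminal genes 12 were lower, with a median of -1.23, which was -0.49 without number-titled 1 and -0.79 with 16 added. By limma 2 of the 22 were lower and 0 higher, against 224 and 18 of all 8251 genes. Of 15 milk protein genes 8 were lower, with a median of -1.43, which was -0.91 without PN1aB and -0.83 with 16 added. Csn1s1, a casein, was uneven, at 3.43 in PN1aA, 9.0 in PN1aB and 7.39 in PN1aC, against 2.45 and 1.37 in the number-titled glands.

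**Figure D5:**
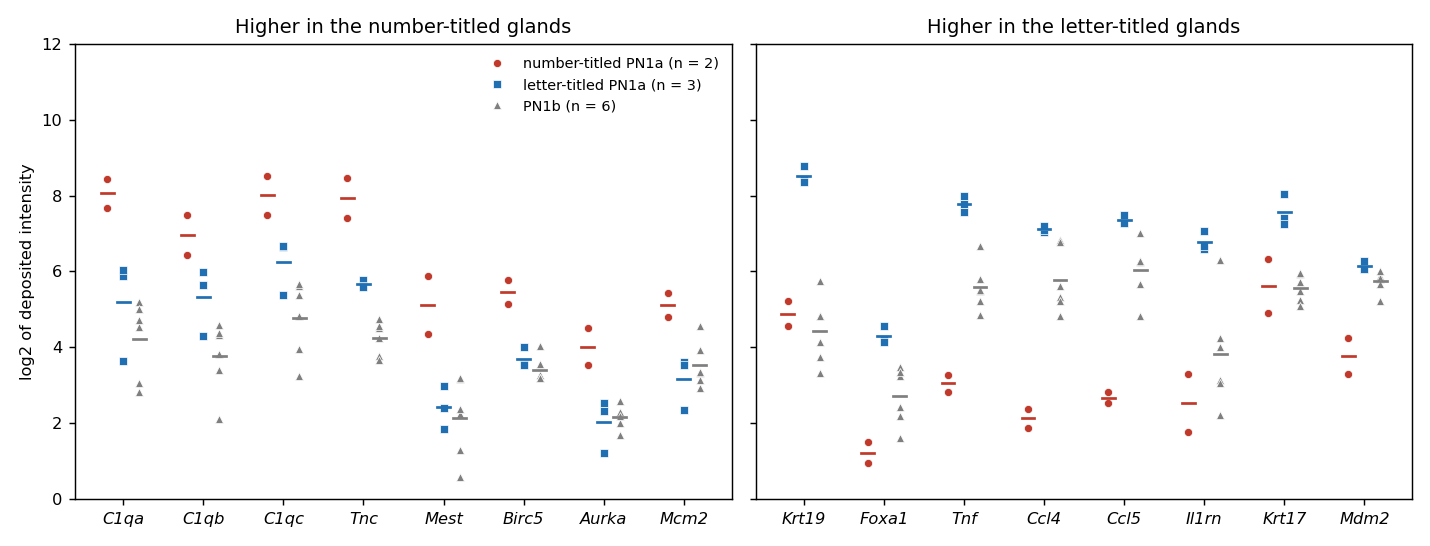
Log2 intensity by sample for 8 genes higher in the number-titled glands (left) and 8 genes higher in the letter-titled glands (right), with bars at group means. C1qa and Tnc are highest in the number-titled glands, and Krt19 is above 8 in the 3 letter-titled glands alone.

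Interferon-stimulated genes were lower in 16 of 25, with a median of -1.38, or -0.74 with 16 added. By limma 5 of the 25 were lower and 0 higher, against 224 and 18 of all 8251 genes. Rsad2, an antiviral enzyme, was at 1.44 and 2.46 in the number-titled glands and 7.03, 6.82 and 7.66 in the letter-titled glands. PN1b spread from 2.49 to 7.40, the highest value being that of PN1b 5. Ifit1 was at 2.93 and 4.85 against 6.57, 6.24 and 6.97. Isg15, Irf7 and Psmb9 were not separated. The list mean was -1.09 and -0.33 in the number-titled glands, and the PN1b range of -0.95 to 0.72 overlapped both groups of PN1a glands.

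Macrophage genes as a list did not follow the cytokine genes. Of 24 genes 1 (4.17%, against 8.23% of all genes) was lower and 4 (16.7%, against 4.27%) higher. The median was 0.35, which was 0.095 without number-titled 1, 0.73 without number-titled 2, 0.20 without PN1aC and 0.20 with 16 added. Csf1r, the receptor for macrophage growth factor, was at 6.52 and 5.32 against 4.87, 5.43 and 4.87, and Cd68 at 5.28 and 4.39 against 5.27, 5.34 and 4.75, both overlapping. The complement genes that macrophages make were higher, C1qa at 8.45 and 7.68 against 5.87, 6.05 and 3.63, a difference of 2.88 ± 0.74, C1qb by 1.64 ± 0.57 and C1qc by 1.77 ± 0.51. Cd14, a receptor for bacterial lipopolysaccharide, was the member on the lower side, at 6.82 and 7.74 against 9.34, 9.41 and 9.47. Of 11 genes of MHC class II, 0 were lower and 0 higher, with a median of -0.11. Of 11 genes in a list taken from the study's text, 0 were separated, with a median of 0.15, or 0.03 with 16 added. The list leaves out Ccl2 and Csf1, which that text also names and which were separated on the lower side, Csf1 at 5.91 and 5.17 against 7.12, 7.75 and 7.96.

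Outside these lists, the largest differences on the lower side included Akap12, a scaffold that holds protein kinase A, at 1.87 and 0.25 in the number-titled glands, 6.40, 6.61 and 7.14 in the letter-titled glands and 5.46 to 7.10 in PN1b. Ptx3, a secreted pattern recognition protein, was at 3.32 and 1.16 against 6.74, 7.15 and 7.64. Has1, a hyaluronan synthase, differed by -4.66 ± 0.25, and Procr, the receptor of protein C, by -4.00 ± 0.37. In all 4 genes the number-titled glands were below the lowest PN1b sample. Mdm2, a ubiquitin ligase that p53 induces, was at 4.25 and 3.30 against 6.07, 6.06 and 6.27, with PN1b between them at 5.23 to 6.00. Cck, a peptide hormone, was at 2.31 and 2.02 against 7.01, 6.01 and 5.81, with PN1b at 6.95 to 9.47.

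On the higher side, Zfp358, a zinc finger gene, was at 6.21 and 6.24 against 4.32, 3.79 and 2.79, with PN1b at 2.55 to 3.56. Tfdp1, the partner of E2F factors, was at 8.94 and 8.88 against 8.12, 7.28 and 7.46, while PN1b lay far lower at 4.77 to 5.49. Its other probe sets differed by 1.24 and 2.60. Timp2, an inhibitor of matrix proteases, was at 6.44 and 4.05 against 3.47, 3.02 and 2.31, but other Timp2 probe sets differed by -0.25 and -0.81. Grina differed by 2.59 in one probe set and by 1.13 ± 0.32 in the brightest. Col18a1, a basement membrane collagen, differed by 0.71 ± 0.50 in its brightest probe set, which overlapped, and by 0.91 to 2.31 in the others. Prim2, Twf2, Matn4 and Sgip1 differed by 2.56, 2.71, 2.30 and 2.28, with letter-titled values that were dim but for Sgip1 in PN1aB, at 4.13.

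Other genes higher in the number-titled glands included Tnc, tenascin C of remodelled stroma, at 8.46 and 7.40 against 5.77, 5.61 and 5.60, with PN1b at 3.66 to 4.74. Mest, an imprinted gene of growing tissue, was at 5.88 and 4.36 against 2.98, 2.41 and 1.85. Col8a1, a collagen of vessel walls, was at 8.15 and 5.77 against 5.14, 4.70 and 4.62. Fdps and Dhcr7, enzymes of cholesterol synthesis, differed by 1.14 ± 0.25 and 1.88 ± 0.37, while other Fdps probe sets differed by -0.64, -0.32 and 1.47. Probe sets of a gene disagreed in several further cases. Cttn, Psap and Tk1 differed by 2.80, 2.53 and 2.22 in a dimmer probe set and by 0.26, -0.32 and -0.28 in the brightest. Among the 529 higher probe sets PN1aC was the lowest letter-titled gland in 312 (59.0%), against 34.0% of all probe sets and 22.4% of the lower ones. PN1b 6, the PN1b sample with the lowest 5′ to 3′ ratios, was the lowest of its group in 30.2% of the higher probe sets and 18.6% of all. The part of the 5′ to 3′ ratio in these differences was not tested.

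Ribosomal protein, respiratory chain and housekeeping genes were close to level. Of 28 ribosomal protein genes 0 were separated, with a median of -0.16, and of 45 respiratory chain genes 1 was lower and 1 higher, with a median of 0.07. Of 12 housekeeping genes 0 were separated. The next 5 lists had shares of lower genes above the 8.23% of all genes. Splicing and RNA-binding genes were lower in 4 of 28 (14.3%), with a median of -0.30. Adipocyte genes were lower in 5 of 24 (20.8%), with a median of -0.26, or -0.047 without number-titled 1. Mast cell genes were lower in 5 of 13 (38.5%), with a median of -0.74, or -0.47 without PN1aC. T and NK cell genes were lower in 6 of 23 (26.1%), with a median of -0.31, or -0.17 and -0.54 without number-titled 1 and 2. Basal epithelial genes were lower in 5 of 17 (29.4%), with a median of -0.42, or -0.66 without number-titled 2. With 16 added these 5 medians were -0.17, -0.08, -0.12, -0.06 and -0.19 in the same order. Skeletal muscle, skin, nerve, neutrophil, B cell, pericyte and hormone response lists each had at most 2 separated genes in either direction. As these lists are small, some shares still exceeded those of all genes. Lower genes were 14.3% of the pericyte list. Higher genes were 11.1% of the skeletal muscle, 15.4% of the skin, 11.8% of the hormone response and 7.14% of the neutrophil and pericyte lists, against 4.27% of all genes.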

How the data were processed

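Glands with PN1a (5) or PN1b (6) lesions had been hybridised to Affymetrix MG_U74Av2 arrays. Linear intensity values were deposited for 12488 probe sets after the authors' processing by dChip (quantile normalization, PM-MM model). The dChip version was not stated in these sources. After log2 without pseudocount, 12422 probe sets remained, the 66 controls being set aside. In the array annotation 10833 of them carried 1 symbol, 396 several and 1193 none. Where a gene had several probe sets, the brightest on average stood for it.

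The 2 number-titled and 3 letter-titled PN1a samples were grouped by the form of their titles. Standard errors and calls came from limma 3.58.1 in R 4.3.3 (lmFit and eBayes on 5 samples, Benjamini-Hochberg), tested on simulated data. No p-value is given for single genes, since the split was chosen on these values, and an exact permutation test of 2 against 3 has 10 splits and cannot go below 0.1. The labels do not say whether samples are separate animals, so errors may be technical. The number of arrays limits the precision. The members, markers and gene lists were chosen with earlier results of these data known. The named genes were the 5 markers, the 15 largest differences in each direction, and up to 5 separated members per list; the text gives part of them, and others chosen after their values were seen, such as Gas6, Lamp1, Atp2a3, Fdps and Dhcr7. The same holds for members given as not separated. Python 3.11.15 and matplotlib 3.10.9 drew the figures.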

Additional observations from a re-analysis of the deposited data

Results flagged for a closer look

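The 18S RNA control probe sets, which enter no comparison of genes, had a median intensity of 167 in number-titled 1 and 260 in number-titled 2, above the 5.39 to 16.2 of the other 9 samples. Among the 6 PN1b samples, 71 sets of values were examined for a sample far from the others, 6 stood out, and chance gives about 1 in 20. PN1b 5 was the sample that stood out in each. Its list mean was 0.74 for cytokines and 0.89 for NF-kappa B targets, both the highest of PN1b, and -0.13 for nerve genes, the lowest. Fos, at 7.94, and Atf3, at 7.78, were the lowest of PN1b there, and Ptx3, a pattern recognition protein, was the highest, at 8.16.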

How the results depend on the processing

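In every setting run with a fold limit, more probe sets were lower than higher in the number-titled glands. With no fold limit, 2367 probe sets were lower and 2503 higher without overlap, so the excess of lower ones depends on that limit. The medians of the lists named below kept their sign unless stated. With limma, main counts of 273 lower and 29 higher became 403 and 122 with log2(value + 16), 507 and 175 among probe sets above the median, 526 and 156 in a fit on all 11 samples, 627 and 202 with trend and robust estimation, 399 and 157 by the methods' t-test at their threshold, and 20 and 5 by that test after Benjamini-Hochberg. Without a replicate each in turn, limma counts ran from 97 to 238 lower and from 0 to 29 higher, with 97 lower and 0 higher without PN1aC, where 820 probe sets were higher at an unadjusted p under 0.05, 126 and 4 without PN1aA, 99 and 3 without PN1aB, 150 lower without number-titled 2 and 17 higher without number-titled 1. Probe sets without overlap, 920 and 529, became 288 and 62 with log2(value + 16), 613 and 253 above the median, and 1676 and 1516 at a fold change of 1.5. Without a replicate they ran from 898 to 1353 lower and from 500 to 928 higher, with 928 higher without number-titled 1 and 839 without number-titled 2. With log2(value + 16) the counts outside the other samples were 226 and 46 for lower and 52 and 1 for higher probe sets, number-titled and letter-titled in turn. Against PN1b of the same label ending alone, the letter-titled counts were 162 and 84.

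List medians with log2(value + 16) were -1.22 for immediate early factors, -0.77 for cytokines, -1.20 for chemokines, -1.44 for NF-kappa B targets, -0.52 for heat shock, 0.39 for cycling and -0.29 for vessels. With the mean of all probe sets of a gene they were -1.46 for chemokines, -0.53 for heat shock and -0.64 for vessels. Without a replicate each in turn, medians ran from -1.89 to -1.56 for immediate early factors, from -2.44 to -1.87 for cytokines, from -2.23 to -1.94 for chemokines, from -2.52 to -2.23 for NF-kappa B targets, from -0.99 to -0.54 for heat shock, from 0.67 to 1.34 for cycling and from -1.06 to -0.42 for vessels. The signs turned without number-titled 2 for hypoxia genes, whose medians ran from -0.017 to 0.33, and for fibroblast genes, whose medians ran from -1.78 to 0.05. The cause was not tested. Leaving out PN1aC, added after seeing the data, changed the cell cycle genes on the higher side from 21 to 22 and all genes from 679 lower and 352 higher to 654 and 326. No paired analysis was possible because the labels give the groups no shared replicate numbers.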
